A study of Rattus norvegicus with 8 samples.

Results

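The miR-130 and miR-301 family is a set of miRNAs that begin with the same bases and therefore share a seed, the stretch of bases 2 to 8 with which a miRNA pairs to its target mRNAs. Its members were taken as all rows named miR-130a, miR-130b, miR-301a or miR-301b, either arm, on a rat miRNA array, which gave 8 of 758 miRNAs. The family was selected on the level of miR-130b-3p, which had the lowest p of all miRNAs between nephrectomized and sham-operated rats, so its values in that comparison are a description and have no test. The relatives came in through their names and not through their own p. Feature Extraction, the scanner's software, called 3 of the 8 arms detected, miR-130a-3p, miR-130b-3p and miR-301a-3p (rno-miR-130a-3p, rno-miR-130b-3p and rno-miR-301a-3p in the files), each on 8 of 8 arrays, and these 3 passed the filter for testing (detection on at least 4 arrays).

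The arrays hold right kidneys of 10-week-old male F344/NSlc rats, an inbred strain. In 4 samples (replicates 1 to 4) the rats had a sham operation, and in the other 4 they had been nephrectomized on one side, which leaves the remaining kidney to take over the work of both. Sham kidneys are labelled as taken on day 1 after surgery and those of nephrectomized rats on day 2, while the design text names 2 days. If the labels are right, the effect of the surgery cannot be told apart from that of time. Nothing in the labels says whether an array holds RNA of 1 rat or of several, so the p-values measure the spread between these samples. Whole kidney was measured, and fewer cells of a type and less RNA per cell cannot be told apart in it.

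A miRNA is cut from a hairpin as a duplex of a 5p and a 3p arm, of which the arm that stays bound to Argonaute acts as the guide and the other is mostly degraded. In this family the 3p arm carries the shared seed and is the known guide. The family is known for repressing Pparg, a nuclear receptor of lipid metabolism, and miR-130a is known as an endothelial miRNA that promotes vessel growth by repressing the homeobox genes GAX and HOXA5 in human cells. In the pulmonary circulation and in fibrotic tissue the family is known to be induced together with vessel stiffening and matrix deposition.

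The mature sequences show how closely the family is related, and where a probe could tell its members apart. RefSeq (build GRCr8) gave sequences for 7 of the 8 arms. The seed is in capitals in the following 3p arms, written 5′ to 3′.
miR-130a-3p: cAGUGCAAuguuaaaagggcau
miR-130b-3p: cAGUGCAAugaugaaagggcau
miR-301b-3p: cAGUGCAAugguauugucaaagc
These 3 share the seed AGUGCAA and are the only ones to do so among the 693 mature rat miRNAs of that table, in which miR-301a-3p is a missing entry. Each pair of them shares its first 10 bases. miR-130a-3p and miR-130b-3p are both 22 bases long and differ by U11A and A13G (the base of miR-130a-3p first, positions counted from 1 at the 5′ end).
The 5p arms carry other seeds, again in capitals.
miR-130a-5p: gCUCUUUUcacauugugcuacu
miR-130b-5p: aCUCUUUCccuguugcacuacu
miR-301a-5p: gCUCUGACuuuauugcacuac
miR-301b-5p: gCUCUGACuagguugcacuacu
The miR-301a and miR-301b arms share the seed CUCUGAC, and those of miR-130a and miR-130b differ from each other in the last seed base.

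The probes are shown because the family's members can only be separated by the bases that differ in them. Agilent's miRNA probes are complementary to the 3′ part of the miRNA, and in the probes of equal length the capitals mark the letters that differ between relatives.
Probe of 18 bases for miR-130b-3p: atgccctttCaTcattgc
Probe of 18 bases for miR-130a-3p: atgccctttTaAcattgc
Probe of 20 bases for miR-301a-3p: gctttgacaatacTattgca
Probe of 20 bases for miR-301b-3p: gctttgacaatacCattgca
The probes of miR-130b-3p matched miR-130b-3p with 0 mismatches, and the nearest other mature miRNA was miR-130a-3p with 2. The probes of miR-301a-3p stood 1 mismatch from miR-301b-3p. How much of a relative's RNA a probe binds was not tested.

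By the longest probe's position in the scanner files (build rn4), miR-130b-3p lay at chr11:85885650-85885666 and its cluster partner miR-301b-3p 354 bases before it at chr11:85885296-85885314, both on the plus strand. miR-130a-3p lay at chr3:67949652-67949669 on the minus strand and miR-301a-3p at chr10:75386901-75386920 on the plus strand. These spans are 1 base shorter than the probes. Among the miRNAs for which the files give a position, no other lay within 50 kb of these hairpins. The files give none for miR-3590. In the RefSeq annotation of GRCr8, Mir130b and Mir301b lie within 2610318N02Rikl, Mir301a lies within both Prr11 and Ska2, and Mir130a overlaps Mir3590.

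All arrays came from 1 slide. The 4 sham arrays took the first row of positions and the 4 nephrectomized arrays the second, so position and group cannot be told apart. The number of miRNAs detected was 242 to 253 in sham and 224 to 230 in nephrectomized arrays, and the 75th percentile of the signal of the 214 miRNAs detected on all arrays was 190.4 to 226.8 in sham and 155.4 to 180.0 in nephrectomized arrays. Levels are therefore given as log2 of the processed signal after scaling each array to that percentile, and differences as nephrectomized minus sham on that log2 scale. The labelled tissue was checked by its markers: 6 of 6 kidney miRNAs (miR-192-5p, miR-194-5p, miR-204-5p, miR-10a-5p, miR-30a-5p and miR-200b-3p) were tested, while the liver miRNA miR-122-5p and the striated muscle markers miR-1-3p, miR-133a-3p, miR-206-3p and miR-208a-3p were detected on 0 of 8 arrays. Other miRNAs known from muscle that were not on the marker list, miR-1-5p, miR-1b, miR-133b-3p and miR-499-5p, were detected on 8 of 8, so RNA of muscle is not shown to be absent.

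miR-130b-3p stood close to background and higher in nephrectomized kidneys. Its closest relative, miR-130a-3p, and miR-301a-3p were well above background, and their groups overlapped. The scaled signal of miR-130b-3p was 5.77, 5.28, 4.47 and 4.35 in sham replicates 1 to 4 and 7.12, 8.18, 9.68 and 10.46 in nephrectomized replicates 1 to 4. The 4 nephrectomized values were thus all above the highest sham value, that of replicate 1. The log2 levels were 2.30 ± 0.19 (SD, n = 4) in sham and 3.13 ± 0.25 (SD, n = 4) in nephrectomized kidneys, a measured difference of +0.83 ± 0.14 (SE). Before scaling, the processed signal of miR-130b-3p was 4.83 to 5.87 in sham and 6.68 to 10.1 in nephrectomized arrays, so the groups were apart there too, although the nephrectomized arrays were the dimmer ones as a whole.

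miR-130a-3p had scaled signals of 1052 to 1107 in sham and of 1042 to 1110 in nephrectomized kidneys. Those of miR-130b-3p were 4.35 to 5.77 and 7.12 to 10.46. How much of the signal on the miR-130b-3p probes came from miR-130a-3p RNA was not tested. The log2 levels of miR-130a-3p were 10.04, 10.09, 10.08 and 10.11 in sham replicates 1 to 4 and 10.02, 10.09, 10.12 and 10.07 in nephrectomized replicates 1 to 4, and the groups overlapped throughout. The difference was -0.0072 ± 0.035 (SE), with a 95% interval from -0.088 to +0.074 (limma adjusted p = 0.942).

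miR-301a-3p, which is encoded on another chromosome, had log2 levels of 5.30, 5.57, 5.47 and 5.38 in sham replicates 1 to 4 and of 5.72, 5.39, 5.49 and 5.37 in nephrectomized replicates 1 to 4. Nephrectomized replicate 1 was the highest array and replicate 4 of the same group lay below 3 of the 4 sham arrays, so the groups overlapped. The difference was +0.059 ± 0.091 (SE), with a 95% interval from -0.15 to +0.27 (limma adjusted p = 0.737). Without nephrectomized replicate 1 it was -0.018.

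**Figure D1:**
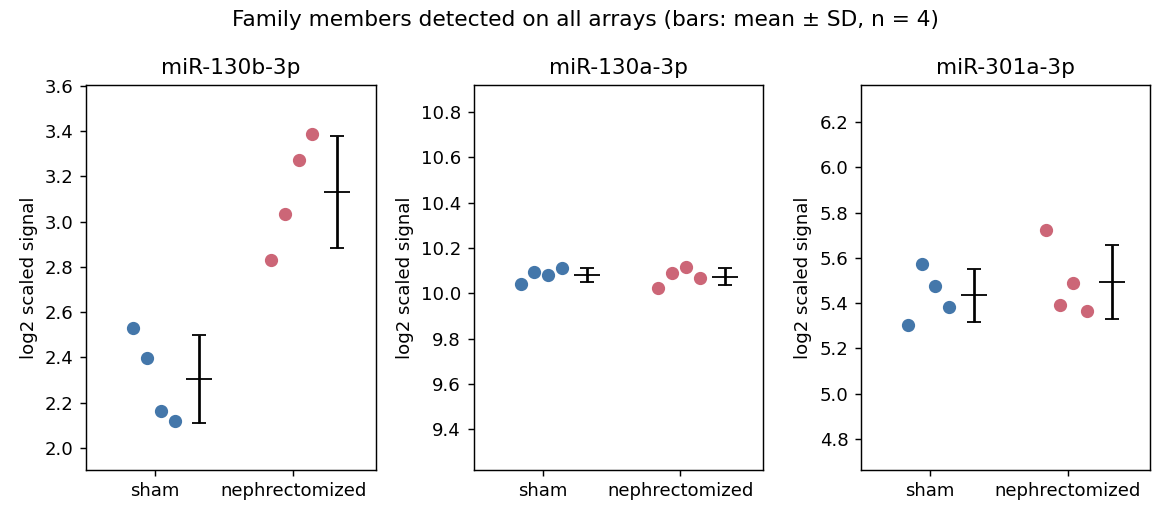
Log2 scaled signal of the 3 detected family members on each array (points, replicates 1 to 4 from left to right within a group), with the mean ± SD of each group (n = 4) beside them. The 3 panels have axes of equal height; miR-130b-3p separates the groups, at 2.30 and 3.13 on average, while those of miR-130a-3p and miR-301a-3p overlap.

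In limma's fit over all miRNAs, 0 of 238 passed the threshold of 0.05 after Benjamini-Hochberg adjustment (0%), so 0 of the 3 tested family members did. At an unadjusted p under 0.05 there were 48 miRNAs (20.2%), and with limma's trend and robust fitting 7 passed the adjusted threshold, miR-130b-3p among them. The groups did not overlap for 1 of the 3 family members, miR-130b-3p, against 35 of all 238 tested miRNAs (14.7%), of which 25 were higher (10.5%) and 10 lower (4.2%) in nephrectomized kidneys. Since miR-130b-3p was chosen in this very comparison, nothing is read from its count or from whether it passed. The median difference was +0.059 over the 3 members and -0.0077 over all tested miRNAs.

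**Figure D2:**
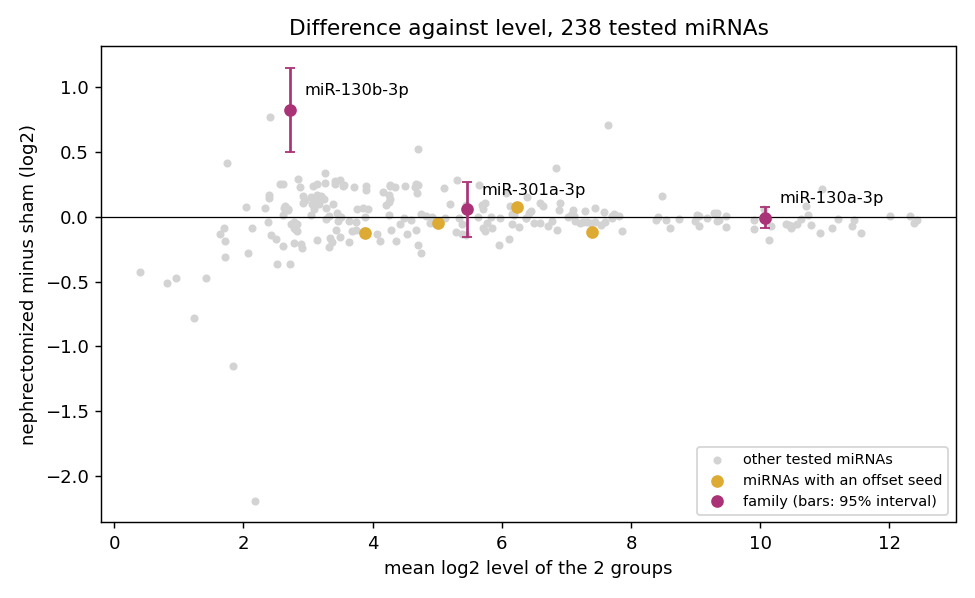
Difference (nephrectomized minus sham, log2) against mean log2 level for the 238 tested miRNAs, with the family in purple (bars: 95% interval) and 4 miRNAs with an offset seed in yellow. miR-130b-3p lies at +0.83 and miR-130a-3p at -0.0072.

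The members were also set against each other within each array, which leaves out any scaling. The log2 difference miR-130a-3p minus miR-301a-3p was 4.65 ± 0.10 (SD, n = 4) in sham and 4.58 ± 0.19 (SD, n = 4) in nephrectomized kidneys. It changed by -0.066 between the groups (exact two-sided permutation test, p = 0.600, where 4 against 4 arrays can give no p below 0.0286), so these relatives were not shown to move apart. The log2 difference miR-130b-3p minus miR-130a-3p, which depends on the choice of miR-130b-3p and has no test, ran from -7.99 to -7.51 in sham and from -7.19 to -6.68 in nephrectomized kidneys, without overlap. miR-130b-3p minus miR-301a-3p ran from -3.31 to -2.78 in sham and from -2.89 to -1.98 in nephrectomized kidneys, and here nephrectomized replicate 1 lay below sham replicate 1. Across the 8 arrays the levels of miR-130b-3p and miR-130a-3p had a Pearson correlation of -0.074, and those of miR-130b-3p and miR-301a-3p of -0.015. After removal of the group means these correlations were 0.077 and -0.55. All are descriptions over arrays that share their scaling.

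miR-130b-3p has 2 probes of 8 spots each, and both gave the same direction. On the probe of 18 bases, the processed signal before scaling was 7.43, 7.34, 7.58 and 6.59 in sham replicates 1 to 4 and 9.19, 8.19, 10.7 and 12.7 in nephrectomized replicates 1 to 4. On the probe of 17 bases, it was 4.31, 3.76, 3.27 and 3.07 in sham and 4.17, 5.40, 6.33 and 7.40 in nephrectomized replicates. The longer probe kept the groups apart before scaling, whereas on the shorter probe nephrectomized replicate 1 lay below sham replicate 1. After scaling neither probe overlapped, and the differences were +0.76 ± 0.12 (SE) and +0.96 ± 0.22 (SE). The groups did not overlap in 12.9% of the 534 probes tested, and in 9.18% with the nephrectomized arrays higher.

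The depth behind these values is small. The standard error over the spots of a probe on 1 array reached 0.959 for the longer and 1.03 for the shorter probe, in units of processed signal. The 182 negative control spots of an array had a mean of 1.28 to 1.83 in sham and of 1.44 to 1.85 in nephrectomized arrays. The SD over these control spots was 1.53 to 1.67 in sham and 1.76 to 2.14 in nephrectomized arrays. Feature Extraction called spots of miR-130b-3p well above background in 3 of 64 sham spots and in 11 of 64 nephrectomized spots, of which 6 were on nephrectomized replicate 4 and 4 on replicate 3. With a probe counted as above background where more than 50% of its spots were, the longer probe passed on 0 of 4 sham and 1 of 4 nephrectomized arrays, and the shorter one on none of the 8. The sham level of miR-130b-3p is then only a bound on either probe. So is the nephrectomized level, except for the longer probe on nephrectomized replicate 4. The log2 differences of miR-130b-3p given here thus compare signals near background, and no fold is read from them.

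**Figure D3:**
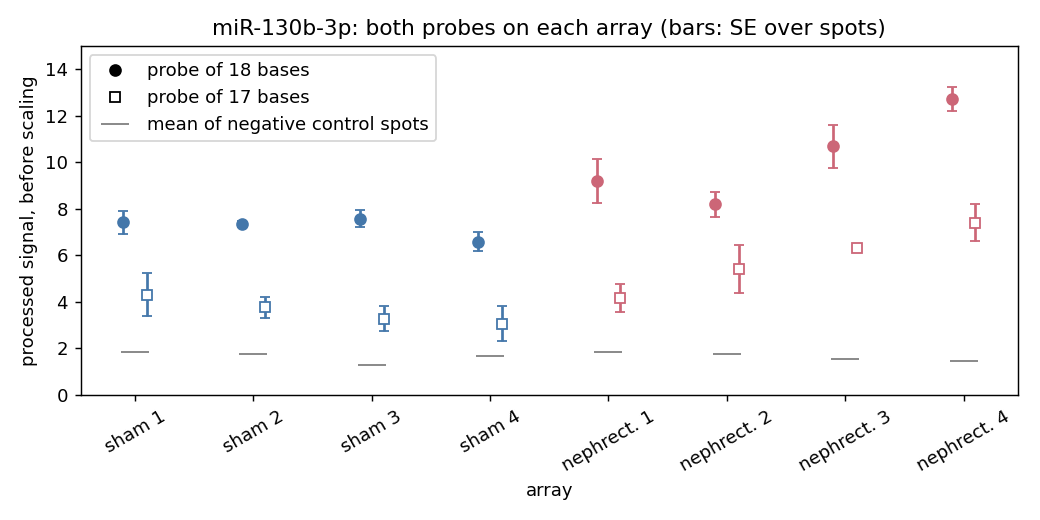
Processed signal of the 2 miR-130b-3p probes on each array before scaling, with the standard error over the spots used, beside the mean of the negative control spots (grey bars). Both probes lie above the mean of the negative control spots on every array, whose spread is not drawn. Nephrectomized replicate 4 is the highest, at 12.7 and 7.40.

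By contrast, the probes of the relatives were well above background in 64 of 64 sham and 64 of 64 nephrectomized spots, both for miR-130a-3p and for miR-301a-3p. The 2 probes of miR-130a-3p differed by -0.022 ± 0.020 (SE; limma adjusted p = 0.588) and +0.0054 ± 0.035 (SE; limma adjusted p = 0.962). Those of miR-301a-3p differed by +0.068 ± 0.095 (SE; limma adjusted p = 0.725) and +0.035 ± 0.096 (SE; limma adjusted p = 0.863). Over all probes, 0 of 534 passed the adjusted threshold in limma (0%), with 107 at an unadjusted p under 0.05 (20%) and 10 past the adjusted threshold with trend and robust fitting.

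The level of miR-130b-3p also depended on which probes were counted. Feature Extraction's total signal of a miRNA adds up the probes it takes as detected. For miR-130b-3p that total equalled the signal of the longer probe alone on 7 arrays and the sum of both probes on 1, nephrectomized replicate 4, where it rose to 11.0 against 4.54 to 5.90 on the other nephrectomized arrays. Equality was judged within 1% of the total. For miR-130a-3p and miR-301a-3p it was the sum of both probes on all 8 arrays. In the authors' deposited table, which is built on these totals, miR-130b-3p stands at -0.38 to -0.19 in sham and at 0.24, 0.19, 0.54 and 1.35 in nephrectomized replicates 1 to 4. With both probes counted on every array, as above, the log2 levels of nephrectomized replicates 3 and 4 were 3.27 and 3.39.

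The other arms of the family gave no call. miR-301b-3p, the partner of miR-130b-3p in the same cluster and with the same seed, was detected on 0 of 8 arrays, with processed signals from -2.41 to -1.54. It had 1 bright spot of 148.0 among 16 on nephrectomized replicate 4, flagged as an outlier by Feature Extraction and left out. The 4 passenger arms were detected on 0 of 8 arrays too. Their signals ran from 1.22 to 3.47 for miR-130b-5p, from 0.22 to 0.99 for miR-130a-5p, from -0.22 to 0.93 for miR-301a-5p and from -2.31 to -0.61 for miR-301b-5p. Not being detected limits what these arrays could show and does not place these arms at 0. The hairpin that overlaps miR-130a, chosen after its values were seen, was detected on 0 of 8 arrays in either arm (miR-3590-5p and miR-3590-3p).

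Some other miRNAs carry 6 of the 7 seed bases one position away. They are shown because they could pair with overlapping target sites; the capitals mark AGUGCA or GUGCAA.
miR-148b-3p: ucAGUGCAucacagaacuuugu
miR-152-3p: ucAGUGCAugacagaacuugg
miR-19a-3p: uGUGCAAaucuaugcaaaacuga
miR-19b-3p: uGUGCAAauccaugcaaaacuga
Of 5 such relatives on the list, 4 were tested, with a median difference of -0.081. In either direction 0 of the 4 passed, where 0 of all 238 tested miRNAs did. The list is not complete: among rat miRNAs without the family's seed, RefSeq held 4 with AGUGCA and 2 with GUGCAA in bases 1 to 9. miR-148b-3p stood at 6.20 ± 0.035 in sham and 6.28 ± 0.12 (SD, n = 4) in nephrectomized kidneys (+0.079 ± 0.060, SE; limma adjusted p = 0.457). miR-152-3p of the same seed stood at 5.04 ± 0.059 and 4.99 ± 0.054 (SD, n = 4), a difference of -0.044 ± 0.044 (SE; limma adjusted p = 0.590). miR-19a-3p and miR-19b-3p differed by -0.12 ± 0.14 (SE; limma adjusted p = 0.640) and -0.12 ± 0.10 (SE; limma adjusted p = 0.532). miR-148a-3p was detected on 0 of 8 arrays. For all 4 tested relatives the groups overlapped.

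Among miRNAs known to repress Pparg (miR-27a-3p, miR-27b-3p and the 3 family members), 0 of 5 passed, where 0 of all 238 tested miRNAs did. The family members were already counted above, and nothing is read from the chosen miR-130b-3p. The median difference of these 5 was -0.0072, which is the value of miR-130a-3p. miR-27a-3p, which is known to hold back fat cell formation, differed by -0.079 ± 0.039 (SE, limma adjusted p = 0.287). Its groups did not overlap, with the nephrectomized arrays lower, as was the case for 10 of all 238 tested miRNAs (4.2%).

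Of the angiogenesis miRNAs 8 of 12 were tested, 0 passed (where 0 of all 238 tested miRNAs did), and the median was -0.0010. Those with the lowest p were the endothelial miR-126a-5p at -0.11 ± 0.051 (SE; limma adjusted p = 0.258) and the hypoxia miRNA miR-210-3p at -0.18 ± 0.090 (SE; limma adjusted p = 0.287). Of the miRNAs linked to TGF-beta and fibrosis 10 of 12 were tested and 0 passed, with a median of -0.034. Those with the lowest p were miR-21-5p, known from injured kidney, at +0.22 ± 0.042 (SE; limma adjusted p = 0.0662) and the tubular miR-192-5p at +0.088 ± 0.030 (SE; limma adjusted p = 0.137).

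Markers of other cells gave the following values. The endothelial pair miR-126a-3p and miR-126a-5p summed to scaled signals of 1203 to 1286 in sham and of 1136 to 1205 in nephrectomized kidneys. The 4 smooth muscle and fibroblast markers summed to 860 to 946 and 833 to 955, the 5 leukocyte markers to 271 to 297 and 255 to 291, and the 3 red blood cell markers to 44.7 to 94.4 and 46.3 to 115.1. Of the neuron markers miR-9a-5p was tested, at -0.24 ± 0.17 (SE; limma adjusted p = 0.444), and miR-124-3p was detected on no array. In none of these lists did a member pass, where 0 of all 238 tested miRNAs did. The part of these cells in the level of miR-130b-3p was not tested.

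The miRNAs whose levels followed miR-130b-3p most closely over the 8 arrays were miR-192-3p, miR-192-5p and miR-15b-5p. miR-192-3p, the other arm of the tubular miR-192, had a Pearson correlation of 0.97 with miR-130b-3p, and of 0.93 after removal of the group means. Its log2 levels ran from 4.15 to 4.26 in sham and from 4.25 to 4.36 in nephrectomized kidneys, a range much narrower than that of miR-130b-3p, and its difference was +0.11 ± 0.040 (SE; limma adjusted p = 0.150). miR-192-5p correlated at 0.96, and at 0.73 after removal of the group means. miR-15b-5p, a cell cycle repressor, correlated at 0.93 and 0.80, and differed by +0.16 ± 0.051 (SE; limma adjusted p = 0.132). These correlations are over 8 arrays that share a scaling and a group difference. By the same measure miR-301a-3p came 122nd and miR-130a-3p 129th of the other tested miRNAs.

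How far the members' differences depended on the processing is shown over 28 alternatives. That of miR-130b-3p was above 0 in all 28, from +0.27 with normexp background correction to +1.00 with the negative control signal subtracted. It was +0.74 to +0.93 when 1 array was left out. Alternatives that changed only the floor, filter, variance model or block could not move it, and left it at +0.83. As miR-130b-3p was chosen on these same arrays, the count of 28 is a description too. miR-130a-3p and the median of all miRNAs both stood at -0.29 without scaling, and at +0.075 where the labelling spike-ins set the scale. With normexp they parted, at -0.063 and +0.13.

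**Figure D4:**
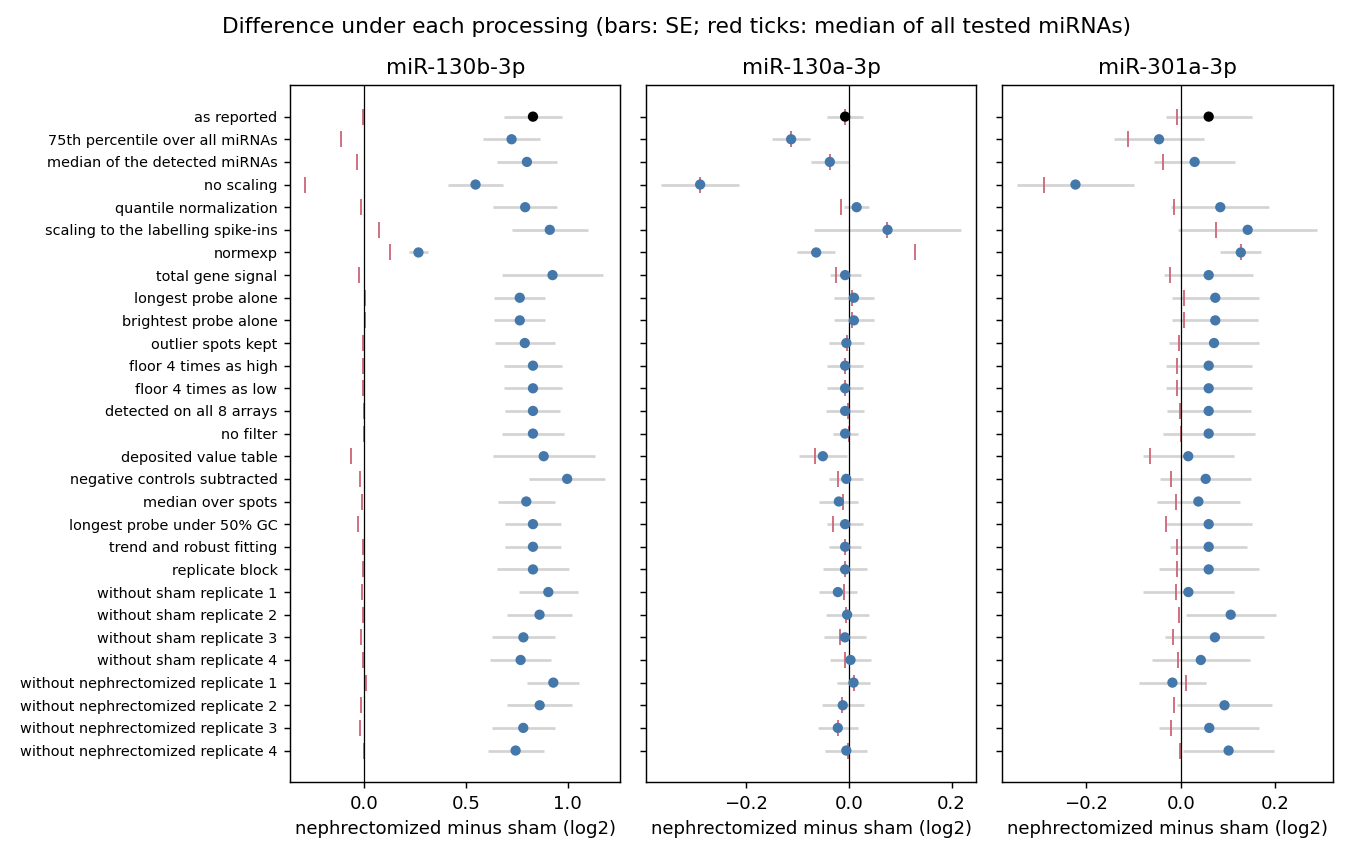
Difference (nephrectomized minus sham, log2, with its standard error) of the 3 members as reported (black) and under 28 alternatives (blue), beside the median of all tested miRNAs (red ticks). The horizontal axes differ between panels. miR-130b-3p stays above 0 throughout, from +0.27 to +1.00, but changes of floor, filter, variance model or block could not move it.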

How the data were processed

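The deposited scanner tables, made with Feature Extraction 12.0.3.1, hold intensity values and other columns of 0 or 1 that mark detection, background and outliers. Per the file headers, spatial detrending was on and multiplicative detrending off for the processed intensity. The deposited table of the series holds log2 values; rebuilding them from log2 of the total signal, a shift per array and centring on each miRNA's median left gaps of at most 1.3e-05, and the rule of the shift is not given in the sources used here. Its column medians ran from -0.25 to 0.17.

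Control spots and outlier spots (8.10% to 9.01%) were left out, spots were averaged per probe and probes per miRNA. Arrays were scaled to the 75th percentile over 214 miRNAs detected on all 8, floored at 0.121 (the lowest scaled signal of a detected miRNA; 1 tested value lay below it) and log2 was taken. The 238 miRNAs detected on at least 4 arrays were tested with limma 3.58.1 (lmFit, eBayes; R 4.3.3), two-sided, Benjamini-Hochberg adjusted over all of them; exact permutation tests used scipy 1.17.1. The fit was tested on simulated data with independent noise and no scaling step, which checks the code and not these results. The number of arrays limits the precision: over the tested miRNAs, log2 differences had a median standard error of 0.067.

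Groups and replicate numbers came from the sample titles. Members and lists were chosen with earlier results of these data known. Named were all members, their neighbours within 50 kb, the seed and offset seed lists, the 2 members of each other list with the lowest p, and the 3 miRNAs most correlated with miR-130b-3p. miR-454-3p, miR-721 and miR-378a-3p of the lists had no row under these names on the array. One list is not reported here. Deviations from the group means of arrays with the same number correlated at 0.34, 0.087, 0.33 and -0.15, so the numbers were not taken as pairs. Alternatives covered scaling, background, probe summary, floor, filter, variance model, block and left-out arrays.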

Additional observations from a re-analysis of the deposited data

Results flagged for a closer look

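Among 60 groups of 4 arrays (levels, probes and the difference between relatives named here), 4 held an array far from its 3 group mates, where 1 in 20 (3) is the number that chance gives. None of these was a family member. miR-19a-3p had a log2 level of 3.54 in sham replicate 1, against 4.03 to 4.13 in the other sham arrays. miR-148b-3p stood at 6.15 in sham replicate 3, and at 6.22 in the others. The lymphocyte miRNA miR-150-5p was at 5.66 in nephrectomized replicate 1 and at 5.85 to 5.87 in its group mates. For the neuronal miR-9a-5p, sham replicate 4 was at 3.28 and the remaining sham arrays were at 2.94 to 2.96.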

How the results depend on the processing

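The levels of miR-130b-3p are limited by signal over background, and its difference is a description. It moved to +0.55 without scaling and to +0.27 with normexp (offset 50), and by less than the spread between replicates in 26 other alternatives. Among these 26, the changes of floor, filter, variance model or block could not move it. In some alternatives miR-130b-3p was among the miRNAs past the adjusted threshold. Nothing is read from that, as it was chosen in this comparison. Among alternatives chosen after the data were seen are the subtraction of negative controls, the median over spots and the limit to miRNAs whose longest probe has under 50% GC. The median of all miRNAs was -0.0077 as reported, -0.11 with the percentile over all miRNAs, -0.29 without scaling and +0.13 with normexp; changes are to be read against it.

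miR-130a-3p stood at -0.29 without scaling (limma adjusted p = 0.0115, the range over alternatives being 0.0115 to 1.00), where the median of all miRNAs was -0.29 too. miR-130a-3p turned to +0.015 with quantile normalization, +0.075 with the labelling spike-ins and +0.0099 with the longest or the brightest probe alone. With 1 array left out it ran from -0.021 to +0.0092, above 0 without sham replicate 4 (+0.0033) or nephrectomized replicate 1 (+0.0092). miR-301a-3p stood at +0.13 with normexp (limma adjusted p = 0.0191, the range being 0.0191 to 1.00), where the median of all miRNAs was +0.13 too and 156 miRNAs passed. miR-301a-3p turned to -0.046 with the percentile over all miRNAs and to -0.22 without scaling, and ran from -0.018 to +0.11 with 1 array left out. The difference between these relatives was -0.19 with normexp (exact permutation p = 0.0286), and -0.11 to +0.027 with 1 array left out, being above 0 without nephrectomized replicate 1.

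The number of miRNAs past the threshold rose from 0 to 19 with the percentile over all miRNAs, 160 without scaling, 156 with normexp, 11 with the brightest probe, 7 with the total signal and 7 with trend and robust fitting, 5 with the longest probe and 5 with the deposited table, 3 under 50% GC, and 1 each with quantile normalization, the spike-ins, detection on all 8 arrays and no filter. Left-out arrays gave 0 to 5 (5 without nephrectomized replicate 3, 1 without nephrectomized replicate 1). For probes it rose from 0 to 30, 273 and 363 with the percentile over all miRNAs, no scaling and normexp, to 8 with quantile normalization and 8 with negative controls subtracted, to 10 with trend and robust fitting and to 1 with no filter, and was 0 to 6 with an array left out (6 without nephrectomized replicate 3, 1 without replicate 4). The cause was not tested. When replicate numbers entered as a block, 0 miRNAs and 0 probes passed, and the difference of miR-130b-3p stayed at +0.83, with a standard error of 0.17. In both groups the replicate number equals the array's column on the slide, so this block is also one for column. A block for the slide was not run, as all arrays share 1 slide.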
